A study of Mus musculus with 6 samples.

Results

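The genes described here lie side by side on mouse chromosome 4 around Cdkn2a: Mllt3, BC057079, Ptplad2, Klhl9, Mtap, Cdkn2a, Cdkn2b and Elavl2. Of these 8 genes, 6 are among the 14765 gene annotations with reads in the series. They were picked by position and because Klhl9 and Mtap stood at a similar low share of their CD24+ level in CD24- cells, so the differences between CD24- and CD24+ cells in these 8 genes are given as a description, with no test. Those 6 passed the filter on low counts, Elavl2 only through its CD24+ libraries, and Cdkn2a and Cdkn2b had no reads.

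Messenger RNA was sequenced from Mvt1, a mouse mammary carcinoma cell line on the FVB/N background, after staining for the surface protein CD24 and sorting by flow cytometry into CD24- and CD24+ cells. Each group was 3 plates of adherent cells in DMEM with 10% fetal bovine serum, and no treatment or further genotype was named for either group. The cells of both groups came from 1 line and the methods name no separate sorts, so errors measure the spread between plates, which may be technical. The comparison asked which transcripts differed between the 2 sorted populations. Mvt1 is known as a line from tumours driven by Myc and Vegf transgenes under a mammary promoter, so reads of Myc cannot be assigned to the endogenous gene.

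Cdkn2a and Cdkn2b are the genes of the INK4 inhibitors, which block the cyclin D kinases and so hold the retinoblastoma protein active. Cdkn2a also encodes p19Arf from another first exon, which restrains Mdm2 and so protects p53. The interval is known as one of the regions most often lost in tumours and in cultured cells, commonly together with Mtap, the enzyme that returns the by-product of polyamine synthesis to methionine and adenine, and the microRNA gene Mir31 lies between Klhl9 and Mtap.

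The libraries held 9046025 to 25692147 mapped reads, of which 71.8% to 74.3% were assigned to genes. Cd24a, the gene of the sorted marker, stood at 15.7%, 14.9% and 9.06% of its CD24+ mean in CD24- replicates 1, 2 and 3. The 6 luminal epithelial markers summed to 1847 to 2040 CPM in CD24- and 759 to 902 CPM in CD24+ cells, nearly all Krt8, Krt18 and Krt19, while the defining epithelial genes Cdh1, Epcam and Krt7 had 2, 6 and 10 reads over all libraries. The 4 leukocyte markers summed to 43.4 to 76.2 CPM in CD24- and 7.17 to 9.60 CPM in CD24+ cells, nearly all Cd68, with 2 reads of Ptprc. The 5 fibroblast markers summed to 4.73 to 10.0 and 13.1 to 19.1 CPM, with Lum and Thy1 at 0, the 3 endothelial markers to 1.69 to 2.56 and 0.157 to 0.787 CPM, and the 3 basal markers to 0 to 0.284 and 1.02 to 1.57 CPM. The part of these lists in the results below was not tested.

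Sequences are shown for Klhl9 and Mtap, the genes with the shared low level, and for the microRNA that lies between them, as a landmark of the interval. In the coding sequence, the read seen most often on the sense strand of Klhl9 covered codons 475 to 491 (mm9 chr4:88366435-88366481, minus strand) and that of Mtap covered codons 209 to 224 (mm9 chr4:88818222-88818268, plus strand). The Mtap read was counted 2, 3 and 4 times in the CD24- libraries and 5, 39 and 25 times in the CD24+ libraries, while the Klhl9 read occurred 8 times in all.
Klhl9: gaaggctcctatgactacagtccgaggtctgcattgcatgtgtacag
Mtap: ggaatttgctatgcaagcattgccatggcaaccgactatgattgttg

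The 250 bases before the RefSeq transcription start are shown for Klhl9 and Mtap, whose CD24- levels were both low, and for Ptplad2, the gene listed just before them, whose level was not (RefSeq, GRCm38.p6, each on its own gene's strand). They lie at chr4:88722509-88722758 for Klhl9, chr4:89137120-89137369 for Mtap and chr4:88438916-88439165 for Ptplad2. GENCODE M21, from which the gene spans below are taken, starts Mtap further upstream, so 248 of the 250 Mtap bases lie inside that span, as do 13 of Ptplad2 and 0 of Klhl9. Capitals mark GC boxes, searched as GGGCGG on both strands with overlaps allowed, a motif found in 32.7% of the 32851 mouse promoters of the same length.
Klhl9: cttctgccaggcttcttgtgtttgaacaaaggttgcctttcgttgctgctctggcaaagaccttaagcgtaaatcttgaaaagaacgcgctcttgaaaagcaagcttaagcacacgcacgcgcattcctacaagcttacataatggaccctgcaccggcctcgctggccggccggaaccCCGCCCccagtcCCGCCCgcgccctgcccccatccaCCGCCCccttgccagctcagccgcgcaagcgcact
Mtap: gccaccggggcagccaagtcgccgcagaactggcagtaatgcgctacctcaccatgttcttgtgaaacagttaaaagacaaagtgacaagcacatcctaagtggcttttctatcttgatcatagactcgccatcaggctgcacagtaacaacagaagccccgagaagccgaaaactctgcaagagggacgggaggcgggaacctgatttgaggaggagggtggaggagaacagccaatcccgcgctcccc
Ptplad2: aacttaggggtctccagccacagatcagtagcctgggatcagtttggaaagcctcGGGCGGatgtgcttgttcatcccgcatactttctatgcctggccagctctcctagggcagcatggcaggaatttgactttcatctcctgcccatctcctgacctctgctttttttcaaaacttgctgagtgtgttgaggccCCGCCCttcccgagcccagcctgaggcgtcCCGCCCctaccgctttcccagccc
Klhl9 and Ptplad2 each held 3 GC boxes and Mtap none. Mtap alone of these 3 held CCAAT on either strand, as did 33.8% of all promoters, and none of them held TATAAA (12.4% of promoters) or CACGTG (6.02%). CpG dinucleotides numbered 19 in Klhl9, 11 in Mtap and 8 in Ptplad2, against a median of 6 over all promoters. So the promoters of Klhl9 and Mtap had none of these motifs in common. Elavl2, also low in CD24- cells but with few reads, shared a motif with each at most of its starts. Its starts 1 to 5 held 1 to 3 GC boxes and CCAAT, and start 6 held neither. A match or its absence in this window says nothing of which factors bind there.

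The 2 arms of miR-31 are given with the seed, bases 2 to 8, in capitals, and have no seed in common.
miR-31-5p: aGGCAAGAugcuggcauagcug
miR-31-3p: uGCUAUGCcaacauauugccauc

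Going along the chromosome, Mllt3, a YEATS-domain protein of the super elongation complex, is the first of the 8 genes (GRCm38 chr4:87769925-88033364, minus strand). Its level, as gene reads scaled by TMM to CPM, was 79.6, 81.9 and 65.9 in the CD24- libraries and 115, 128 and 115 in the CD24+ libraries. The groups did not overlap, and the CD24- mean was 63.6% ± 8.21 of the CD24+ mean (SD propagated from both groups, n = 3 each).

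BC057079, now named Focad, encodes focadhesin (GRCm38 chr4:88094629-88411011, plus strand). It had 54.9, 47.6 and 49.0 CPM in CD24- and 42.5, 46.7 and 42.2 CPM in CD24+ cells. Here CD24- cells were slightly higher, at 115% ± 11.1 of the CD24+ mean, and the lowest CD24- library was 47.6 CPM against a highest CD24+ library of 46.7 CPM.

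Ptplad2, now named Hacd4, belongs to the 3-hydroxyacyl-CoA dehydratases of fatty acid elongation (GRCm38 chr4:88396144-88438928, minus strand). Its levels were 20.5, 24.4 and 19.5 CPM in CD24- and 20.3, 17.3 and 22.4 CPM in CD24+ cells. The groups overlapped, with a CD24- mean at 107% ± 18.9 of the CD24+ mean. Its 3′ end overlaps that of BC057079 on the other strand and the library kit does not mark strand, so 586 reads that match both genes cannot be told apart. With the 3275 reads that match Ptplad2 transcripts alone, of which 161 bore the annotation BC057079 and 1613 bore none, the share was 102% ± 23.7.

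Klhl9, a substrate adaptor of the Cul3 ubiquitin ligase that acts in mitosis, comes next (GRCm38 chr4:88718292-88722465, minus strand). It had 62, 81 and 61 reads in the CD24- libraries, or 6.52, 7.68 and 6.87 CPM. In the CD24+ libraries it had 457, 1479 and 1456 reads, or 71.9, 83.5 and 76.3 CPM. All 3 CD24- libraries lay far below the CD24+ libraries, at 9.10% ± 1.03 of their mean. In bulk RNA, fewer cells with the transcript and less transcript per cell cannot be told apart.

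Mtap lies on the far side of the interval that holds Mir31 (GRCm38 chr4:89137122-89181081, plus strand). It had 153, 222 and 185 reads in CD24- libraries, or 16.1, 21.0 and 20.8 CPM, and 1220, 4053 and 3750 reads in CD24+ libraries, or 192, 229 and 196 CPM. The CD24- mean was 9.39% ± 1.64 of the CD24+ mean, and each CD24- library was at 7.82% to 10.2% of it. For Klhl9 the same 3 libraries were at 8.45% to 9.94%. With each distinct sequence counted once per library, which caps a read that recurs at 1, the Mtap share was 16.4%, since its 9023 CD24+ reads were 4014 such counts and its 560 CD24- reads were 508. Mtap reads per Klhl9 read were 2.47, 2.74 and 3.03 in CD24- and 2.67, 2.74 and 2.58 in CD24+ libraries. Because the 2 genes were picked for similar shares, a like ratio in both groups follows from the choice. Nothing further is read from it.

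Cdkn2a (GRCm38 chr4:89274471-89294653, minus strand) and Cdkn2b (GRCm38 chr4:89306299-89311039, minus strand) had no read in any of the 6 libraries, neither by the deposited annotation nor by an exact match of every deposited sequence to their GENCODE M21 transcripts. A count of 0 over all 6 libraries allows up to 0.0416 CPM (3 counts, counting error only). Neither group can therefore be called lower than the other at this depth. The search covered 1123 distinct stretches of 47 bases for Cdkn2a and 1344 for Cdkn2b, none of them shared with another gene. The transcripts of p16Ink4a (Cdkn2a-201) and of p19Arf (Cdkn2a-202) had 274 and 317 positions of their own, and both were listed at 0 reads. The authors kept exact genome matches only, so reads that cross exon junctions or carry a variant were outside the files.

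Elavl2, a neuronal RNA-binding protein, is the last of the 8 (GRCm38 chr4:91250763-91400785, minus strand). It had 6, 3 and 4 reads in CD24- and 24, 81 and 69 reads in CD24+ libraries, or 0.631, 0.284 and 0.451 CPM against 3.78, 4.57 and 3.61 CPM. The groups did not overlap and the CD24- mean was 11.4% ± 4.59 of the CD24+ mean. With so few reads the share in a single CD24- library was loosely fixed, from 7.13% (95% exact Poisson interval 1.47% to 20.8%, counting error only) in replicate 2 to 15.8% (5.81% to 34.5%) in replicate 1.

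**Figure D1:**
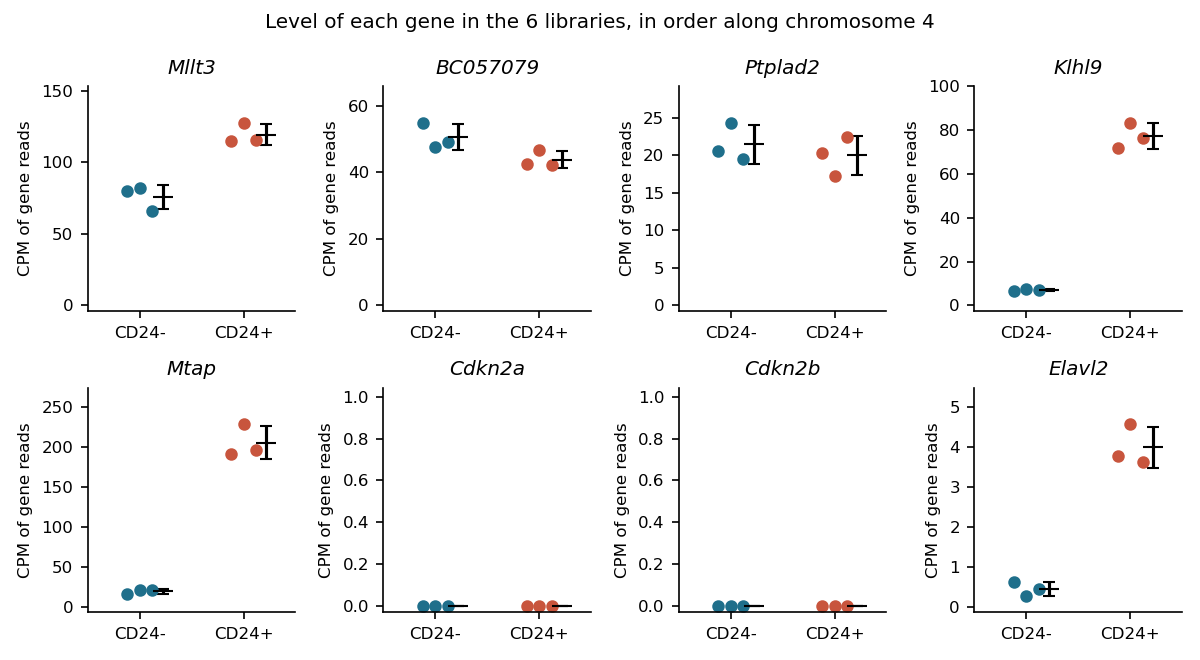
CPM of gene reads (y axis, from 0, a scale of its own in each panel) of the 8 genes in chromosome order, for the 3 CD24- and 3 CD24+ libraries (points), with mean ± SD beside them. Klhl9 is at a mean of 77.2 CPM in CD24+ and 7.02 CPM in CD24- cells, Mtap at 206 and 19.3 CPM, Ptplad2 overlaps between groups, and Cdkn2a and Cdkn2b are at 0 throughout.

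In all, 5 of the 6 genes with reads did not overlap between the groups, 4 higher in CD24+ cells and 1 lower. Over the 11125 genes tested, 57.3% did not overlap, 29.7% higher and 27.6% lower, and since the contrast was used to pick the genes nothing is read from this count.

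Levels of different genes were compared per kilobase of the longest coding transcript, over positions that match a single gene. These positions include those across exon junctions, whose reads were outside the files. Levels of genes with many exons are therefore set too low beside Klhl9, which has no junction, and the order is approximate. The limits for Cdkn2a and Cdkn2b are too low in the same way. In CD24+ cells Mtap was highest at 74.2 ± 6.51 CPM per kb, followed by Klhl9 (19.4 ± 1.54), Mllt3 (18.8 ± 0.723), Ptplad2 (10.4 ± 1.76), BC057079 (5.90 ± 0.510) and Elavl2 (0.896 ± 0.0932). Klhl9 and Mllt3 overlapped between libraries in that order, and the other neighbours in it did not. In CD24- cells the order was Mllt3 (11.8 ± 1.49 CPM per kb), Ptplad2 (10.5 ± 1.69), BC057079 (6.94 ± 0.464), Mtap (6.84 ± 0.756), Klhl9 (1.70 ± 0.168) and Elavl2 (0.0742 ± 0.0501). There Mllt3 overlapped with Ptplad2, and BC057079 with Mtap. The 0 counts of Cdkn2a allow up to 0.122 CPM per kb in CD24- and 0.0819 CPM per kb in CD24+ cells, and those of Cdkn2b 0.0771 and 0.0517. In CD24+ cells both limits lie below the Elavl2 level, while in CD24- cells both lie above it.

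Where along the chromosome the groups parted was followed with every read placed there, annotated or not, except reads annotated to repeats and reads whose sequence matches transcripts elsewhere. Positions from here on are mm9, the build of the deposited reads. Windows of 100 kb from 87.7 to 88.1 Mb, which hold BC057079 and Ptplad2, had CD24- levels at 104% to 135% of CD24+. The window at 88.2 Mb stood at 103% ± 19.8, but 92.5% of its reads matched a pseudogene, Mrpl48-ps, at 88.2456 Mb. Those 209 reads matched no other GENCODE transcript, and they stood at 99.6% ± 23.0, with overlapping groups. The window of Klhl9 at 88.3 Mb was the first low one, at 9.12% ± 1.02, and each of the 5 windows that followed, up to and including that of Mtap at 88.8 Mb, was at 8.69% to 12.4%. Windows whose main annotation was Klhl9 (88.3 Mb) or Mtap (88.7 and 88.8 Mb) mostly repeat the genes chosen. Those at 88.4, 88.5 and 88.6 Mb held 1, 3 and 2, then 4, 4 and 6, then 1, 1 and 5 CD24- reads. Of the reads at 88.4 Mb 25% matched pseudogenes, and the share at 88.6 Mb was 12.4% ± 13.7. Between Ptplad2 and Klhl9 only 35 unannotated reads outside pseudogenes were found, 1, 3 and 6 in CD24- and 2, 8 and 15 in CD24+ libraries, and these groups overlapped. By these reads alone the place of the step between 88.1 and 88.36 Mb is not resolved, while the pseudogene reads, if they were made there, place it after 88.2456 Mb.

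The low level between Klhl9 and Mtap did not rest on the 2 genes. Reads there without any annotation numbered 7, 7 and 15 in CD24- and 56, 205 and 199 in CD24+ libraries, and the CD24- level was 10.0% ± 5.74 of the CD24+ level. By exact match, 165 reads there belonged to the lincRNA AL805899.1, the host of Mir31, with 2, 6 and 4 reads in CD24- and 27, 50 and 76 in CD24+ libraries (11.1% ± 5.46). Another lincRNA, Wincr1, had 1, 0 and 2 reads in CD24- and 9, 40 and 18 in CD24+ libraries (7.16% ± 7.96). The lincRNAs Gm26525 and Gm26867 together had no read in CD24- and 24 in CD24+ libraries. These lincRNA reads lie in the same span and can be among the unannotated reads, so the counts are not separate from each other. Reads annotated to mir-31 itself were 1 in CD24- and 5 in CD24+ cells, and a poly(A) library does not measure the mature microRNA. The 3 genes with reads and an interferon symbol (Ifn), antiviral cytokine genes between Ptplad2 and Mtap, had 5 reads in CD24- and 14 in CD24+ libraries. Of these, Ifna13, on the Ptplad2 side of Klhl9, had 4 and 2, and Ifnz, on the Mtap side, 1 and 11. The annotations OTTMUSG00000011262, NM_001085531 and OTTMUSG00000011270 in the same stretch had 3, 7 and 4 reads over all libraries. They bear no such symbol and were not classed.

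Beyond Mtap few reads were placed. From the last read matching an Mtap transcript to 89.1 Mb, the stretch that holds Cdkn2a and Cdkn2b, there were 0, 3 and 5 reads in CD24- and 6, 18 and 19 in CD24+ libraries, repeats included. The CD24- level was 28.7% ± 28.6 of the CD24+ level, and 22 of these 51 reads carried no repeat annotation. From 89.1 to 89.2 Mb there were 18, 27 and 18 reads in CD24- and 10, 16 and 18 in CD24+ libraries, repeats included, or 190% ± 69.7 of the CD24+ level. This stretch was not fixed in advance, and most of its reads were annotated to repeats. Without repeats the groups overlapped there, with 23 reads in CD24- and 15 in CD24+ cells. Unannotated reads from 89.2 Mb to Elavl2 were 5 in CD24- and 29 in CD24+ libraries (31.4% ± 36.0), and those from Elavl2 to Tusc1 were 33 and 62 (79.9% ± 18.1), both with overlapping groups. The main window of Elavl2 at 90.9 Mb was at 6.66% ± 4.46, and the window at 92.4 Mb beyond it, with 77 unannotated reads, was at 92.0% ± 17.9. Between Mtap and Elavl2 the only windows with at least 20 reads were that at 89.1 Mb, with overlapping groups, and those at 90.5 and 90.7 Mb, whose reads all matched pseudogenes. These reads therefore do not settle whether the low levels of Mtap and Elavl2 were part of 1 stretch.

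**Figure D2:**
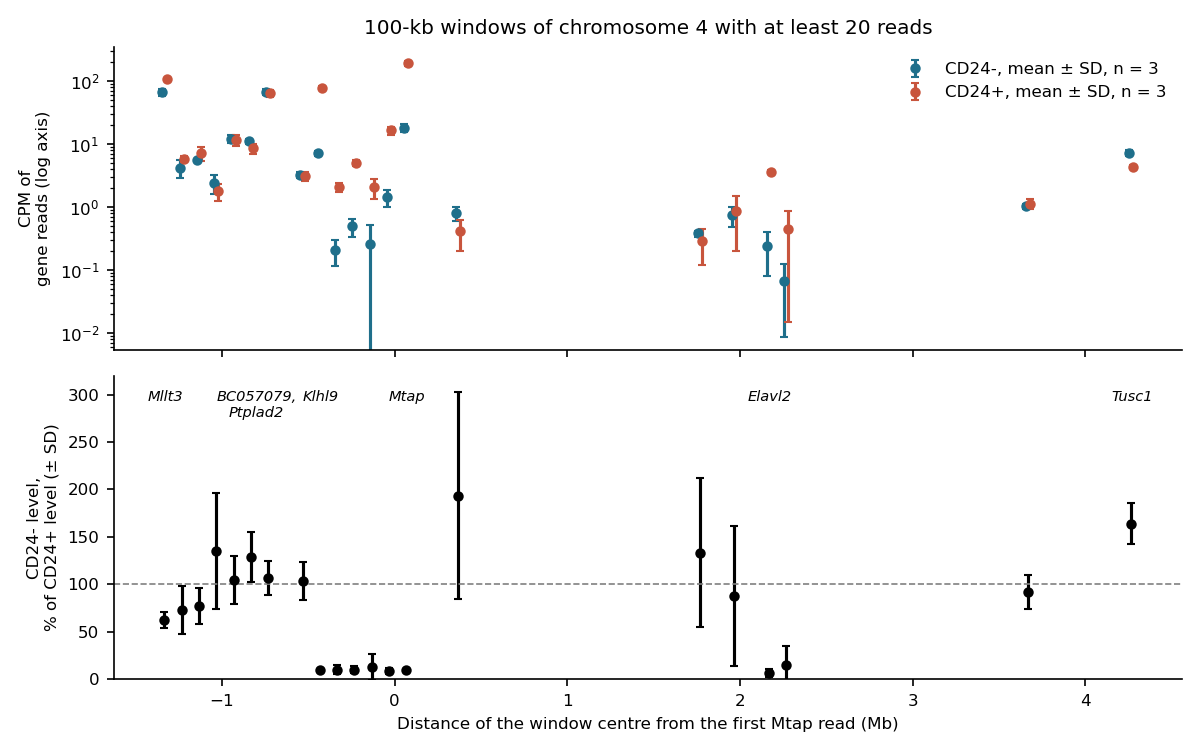
Scaled reads (CPM of gene reads) in 100-kb windows with at least 20 reads (upper panel, log axis, mean ± SD of 3 libraries, lower bars that reach 0 run off the axis) and the CD24- level as a percent of the CD24+ level (lower panel, ± SD), by distance of the window centre from the first Mtap read in Mb. The 6 windows from Klhl9 to Mtap lie between 8.69% and 12.4%, and those with Klhl9 or Mtap as main annotation mostly repeat the genes chosen. Windows of BC057079 and Ptplad2 lie at 104% to 135%.

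The shape of the signal along the 2 low transcripts was examined next, since a few positions could carry a gene count. The 8 exons of Mtap-201 were each lower in all CD24- than in all CD24+ libraries, with CD24- levels from 7.15% ± 1.73 of CD24+ (exon 3, 3 and 67 reads) to 11.5% ± 2.39 (exon 5, 21 and 271 reads). The last exon, which carried most reads (341 and 5574), was at 9.18% ± 1.46. Klhl9-201 has 1 exon, with 201 reads in CD24- and 3385 in CD24+ cells. The lincRNA Gm26566 overlaps its 5′ end on the other strand, and 419 reads match both, whose strand of origin is unknown. Without them the CD24- level of Klhl9 was 8.77% ± 1.11. The reads were spread over many sequences: CD24- cells had 187 distinct Klhl9 sequences, of which 63.1% were also seen in CD24+ cells, and 425 distinct Mtap sequences, of which 89.6% were.

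**Figure D3:**
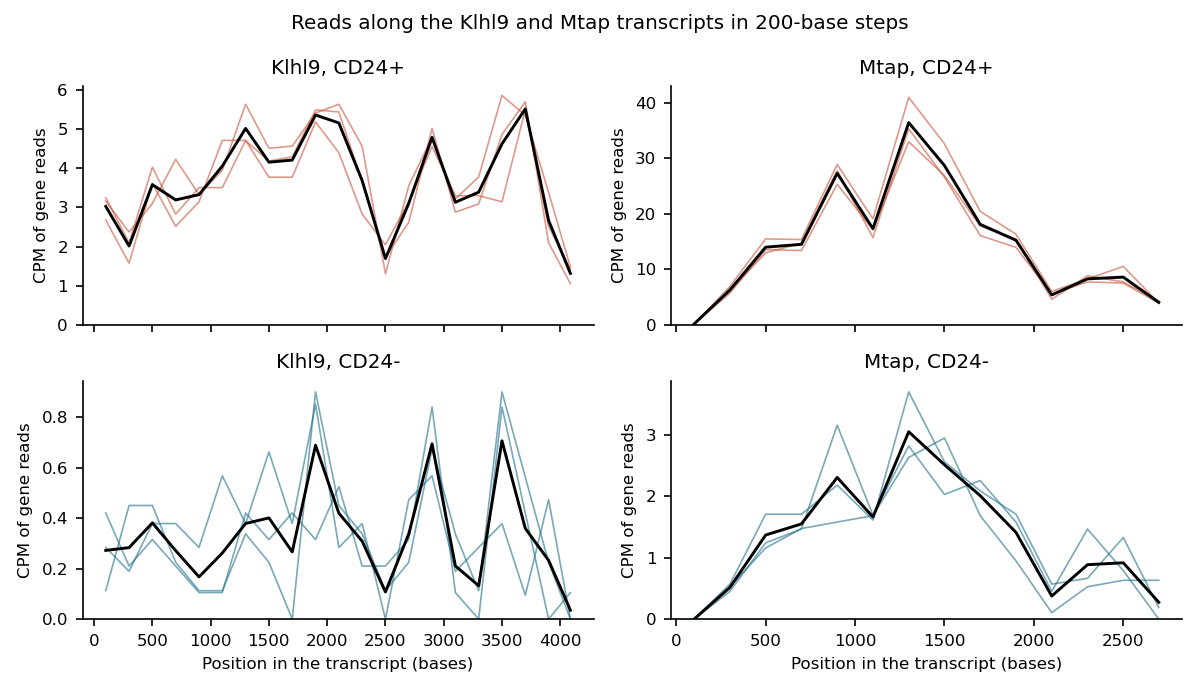
Scaled reads (CPM of gene reads) in 200-base steps along Klhl9-201 and Mtap-201 (x axis, bases from the transcript start) in CD24+ (upper) and CD24- libraries (lower, with a smaller y scale), thin lines for the 3 libraries and a black line for their mean. Reads of both groups run along most of both transcripts, except the first 200 bases of Mtap-201, which had none in CD24- and a mean of 0.106 CPM in CD24+ cells, with distinct sequences in CD24- cells numbering 187 for Klhl9 and 425 for Mtap.

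The other chromosome 4 genes within 5 Mb of the 8 were read for comparison. Of 37 neighbours with reads, 22 were tested, 6 were higher and 6 lower in CD24+ cells (54.5%, against 46.1% of all genes tested, edgeR's quasi-likelihood test with Benjamini-Hochberg adjustment), and 7 of 21 were called with each distinct sequence counted once (33.3%, against 33.4% of all genes tested that way). Their median log2 fold-change, CD24+ over CD24-, was -0.06, beside 0.02 over all genes. The nearest tested gene before Mllt3 was Slc24a2, a sodium, calcium and potassium exchanger, with 0.793 ± 0.0583 CPM in CD24- and 12.9 ± 0.577 CPM in CD24+ cells (a log2 difference of 4.0, SE 0.21, adjusted p = 2.48e-07). Its CD24- level was thus 6.15% of the CD24+ level, also low, although Mllt3, BC057079 and Ptplad2 lie between it and Klhl9. The CD24- libraries of Slc24a2 held only 0.736 to 0.853 CPM, so few reads that it is not ranked against Klhl9 and Mtap. The nearest tested gene after Elavl2, Tusc1, moved the other way, with 7.04 ± 0.797 and 4.29 ± 0.373 CPM (log2 fold-change -0.74, SE 0.18, adjusted p = 0.00746). Bnc2, a zinc finger gene, was higher in CD24+ cells, at 4.39 ± 0.411 against 0.748 ± 0.266 CPM (log2 fold-change 2.50, SE 0.29, adjusted p = 6.59e-05). Slc24a2 and Bnc2 both passed the filter on low counts through their CD24+ libraries, and their CD24- levels rest on few reads. Zdhhc21, a palmitoyltransferase gene, was lower in CD24+ cells (-0.81, SE 0.09, adjusted p = 6.49e-05). So was 4930579C15Rik (-1.36, SE 0.39, adjusted p = 0.0162), at 0.414 ± 0.225 against 1.24 ± 0.121 CPM, which passed the filter through its CD24- libraries. Its call was lost with DESeq2 and without CD24- replicate 1 or 2. The other 17 tested neighbours had CD24- levels at 61.1% to 133% of CD24+, as the plot of genes by position shows.

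**Figure D4:**
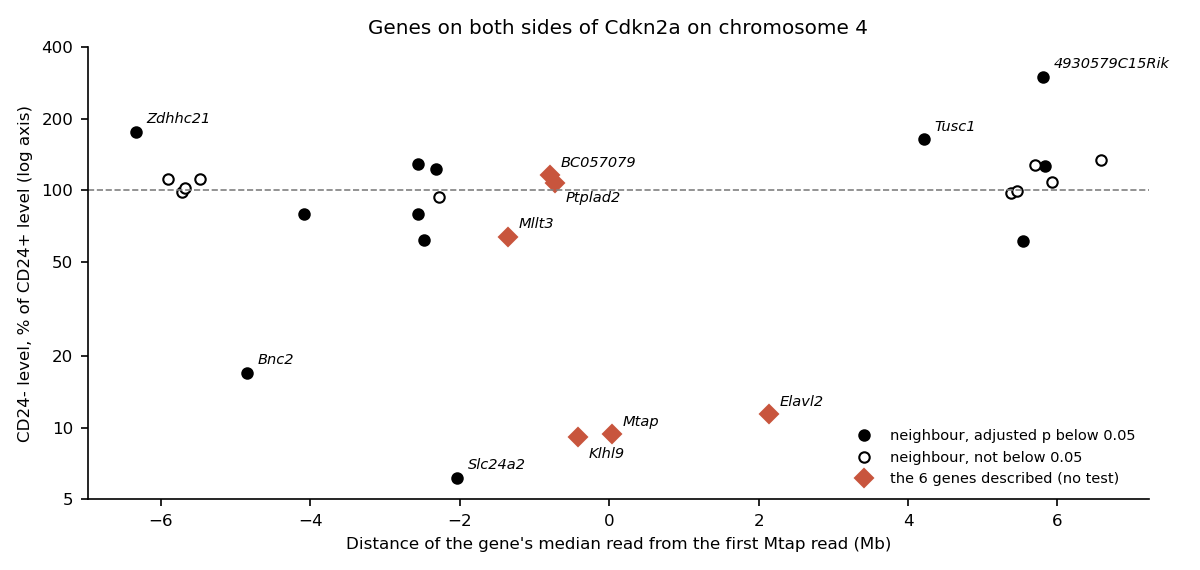
CD24- level as a percent of the CD24+ level (log axis) of the 22 tested neighbours (circles, filled where adjusted p was below 0.05) and the 6 described genes with reads (diamonds, no test), by distance of the median read of a gene from the first Mtap read in Mb. Slc24a2 at 6.15%, Klhl9 at 9.10%, Mtap at 9.39%, Elavl2 at 11.4% and Bnc2 at 17.0% lie low. The genes near 100% lie before Klhl9 or beyond Elavl2, but between Klhl9 and Elavl2 only Mtap had enough reads to be plotted.

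The profile over the 6 libraries that Klhl9 and Mtap had in common was also found on other chromosomes. The search ran over the 9330 genes whose mean CPM reached 3 on the log2 scale. Nearest by Euclidean distance of centred log2 CPM were Parvb (0.169, chromosome 15), a focal adhesion protein, and the transcription factor gene Irx1 (0.190, chromosome 13). Sema3a, a secreted guidance cue (0.195, chromosome 5), Syt13, a synaptotagmin (0.235, chromosome 2), and Lysmd2 (0.270, chromosome 9) followed. These are distances to the mean of the Klhl9 and Mtap profiles, from which each of the 2 genes was itself 0.113 away. The 5 genes were selected for this likeness, with CD24- levels at 8.95% to 10.1% of CD24+, so no test is given. In CD24- cells Parvb (4.74 ± 0.387 CPM), Irx1 (3.68 ± 0.508), Syt13 (7.92 ± 0.457) and Lysmd2 (1.34 ± 0.0934) lay below that floor. They entered the search through their CD24+ libraries, where Lysmd2 was at 14.7 ± 1.57 CPM. Only Sema3a, at 8.28 ± 0.677 CPM in CD24- cells, lay above the floor in both groups.

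Genes that work with these genes, other than Elavl2, for which no list was made, were then read from the same fit. Of 30 tested genes of the INK4 and ARF pathway, 8 were higher and 11 lower in CD24+ cells (63.3%, all genes 46.1%), with a median log2 fold-change of -0.22. Cdk4 and Cdk6, the kinases that INK4 proteins inhibit, did not pass, with 348 ± 12.6 and 379 ± 25.6 CPM for Cdk4 and 40.3 ± 2.86 and 35.1 ± 2.70 CPM for Cdk6 in CD24- and CD24+ cells (adjusted p = 0.243 and 0.137). Their partner Ccnd2, cyclin D2, rose from 7.12 ± 1.03 to 108 ± 13.3 CPM (log2 fold-change 3.91, SE 0.14, adjusted p = 2.83e-08). Cdkn2c, an INK4 gene outside this interval, had reads, unlike Cdkn2a and Cdkn2b, and rose from 25.4 ± 0.624 to 69.6 ± 4.08 CPM (1.45, SE 0.09, adjusted p = 8.17e-07). Rb1, the retinoblastoma gene, was also higher, at 26.1 ± 1.41 and 54.1 ± 10.5 CPM (1.05, SE 0.14, adjusted p = 0.000162).

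On the p53 side, Trp53 was at 239 ± 3.16 CPM in CD24- and 236 ± 3.14 CPM in CD24+ cells (adjusted p = 0.871). The p53 inhibitors Mdm4 (log2 fold-change -1.42, SE 0.14, adjusted p = 2.26e-05) and Mdm2 (-0.64, SE 0.10, adjusted p = 0.000663) were lower in CD24+ cells. Cdkn1a, a p53 target, had 254 ± 7.02 and 199 ± 59.6 CPM and did not pass (adjusted p = 0.115), but passed without CD24+ replicate 1 and with the replicate block. Myc, an inducer of p19Arf, was lower at 251 ± 50.9 CPM in CD24+ against 897 ± 116 CPM in CD24- cells (-1.83, SE 0.15, adjusted p = 5.77e-06). E2f3, a transcription factor released by the retinoblastoma protein, was lower too (-0.69, SE 0.12, adjusted p = 0.00125).

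For Mtap, 22 genes of methionine salvage, polyamine metabolism and the Prmt5 complex were tested, and 4 were higher and 8 lower in CD24+ cells (54.5%, all genes 46.1%), with a median log2 fold-change of -0.13. With each distinct sequence counted once, 1 was higher and 7 were lower (36.4%, all genes 33.4%). Apip, the salvage enzyme that acts downstream of Mtap, was higher in CD24+ cells, at 22.5 ± 3.53 against 12.1 ± 1.15 CPM (0.88, SE 0.15, adjusted p = 0.0007). Azin1, which frees ornithine decarboxylase from its antizyme (0.63, adjusted p = 0.000655), and Ahcy, adenosylhomocysteine hydrolase (0.46, adjusted p = 0.00191), were also higher, and both calls were lost when each distinct sequence was counted once. Riok1 (-1.12, SE 0.10, adjusted p = 9.6e-06) and its partner Prmt5, the arginine methyltransferase that is sensitive to the Mtap substrate (-0.52, SE 0.09, adjusted p = 0.000805), were higher in CD24- cells. So were Aprt, which salvages adenine (-0.69, adjusted p = 0.000155), and Paox, a polyamine oxidase (-0.83, adjusted p = 0.0042).

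Of 17 tested partners of Klhl9, 2 were higher and 4 lower in CD24+ cells (35.3%, all genes 46.1%), with a median log2 fold-change of -0.11. Klhl13, the adaptor that works with Klhl9 in the Cul3 ligase, ran opposite to it, with 466, 482 and 206 reads in CD24- and 4, 7 and 8 reads in CD24+ libraries. It had 39.3 ± 14.0 CPM in CD24- and 0.481 ± 0.129 CPM in CD24+ cells (on the log2 scale -6.44, SE 0.39, adjusted p = 6.44e-07). Cul3 itself (180 ± 10.9 and 153 ± 14.8 CPM, adjusted p = 0.0609) and Aurkb, the mitotic kinase that the ligase modifies (107 ± 2.14 and 92.7 ± 9.48 CPM, adjusted p = 0.0803), did not pass. Cul3 passed with DESeq2, without TMM and without CD24+ replicate 2, and Aurkb without CD24+ replicate 2. Irs1, an insulin receptor substrate, was higher in CD24+ cells (2.64, SE 0.17, adjusted p = 1.01e-06). Cand2, a cullin exchange factor (-0.86, adjusted p = 0.000716), and Klhl12, another Cul3 adaptor (-0.71, adjusted p = 0.000104), were lower. Rbx1, the RING subunit, was just past the threshold (0.24, adjusted p = 0.0357) and lost its call in 8 of 11 alternatives.

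Of 28 tested partners of Mllt3, BC057079 and Ptplad2, 2 were higher and 5 lower in CD24+ cells (25%, median log2 fold-change -0.16), beside 46.1% of all genes. Elongation genes Ell (-0.79, SE 0.13, adjusted p = 0.000723) and Ccnt2, a cyclin of the elongation kinase (-0.63, SE 0.12, adjusted p = 0.00145), and Ttc37, a subunit of the SKI complex (-0.86, SE 0.08, adjusted p = 1.96e-05), were lower. Elovl5, a fatty acid elongase, was higher (0.35, adjusted p = 0.00429), a call lost when each distinct sequence was counted once. The other higher gene, Elovl4, was under the level set for naming genes and was added after its values were seen, with 0, 2 and 0 reads in CD24- and 10, 26 and 25 in CD24+ libraries.

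**Figure D5:**
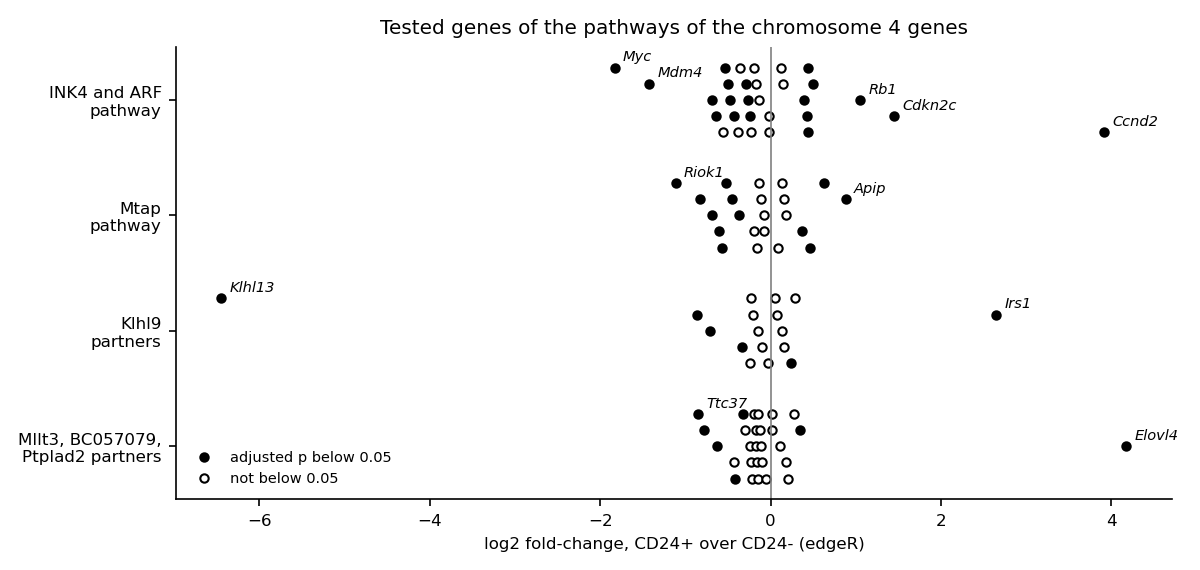
log2 fold-change, CD24+ over CD24-, by edgeR (x axis) of every tested gene of the 4 lists, 1 point per gene, filled where adjusted p was below 0.05 and spread in height for legibility only. Ccnd2 at 3.91, Irs1 at 2.64 and Klhl13 at -6.44 stand far from the rest of their lists, whose medians lie between -0.22 and -0.11, and the place of Elovl4 rests on 2 CD24- reads, so its fitted value is neither a measured fold nor a bound.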

How the data were processed

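Messenger RNA of 3 plates of CD24- and 3 plates of CD24+ Mvt1 cells was sequenced as 51-base single-end reads. The authors trimmed 2 bases from each end, collapsed identical 47-base sequences, placed them on the mouse genome (mm9 per the labels) by exact match, gave each 1 annotation by a hierarchy and deposited raw counts per sequence. The mapping tool is not given in the sources used here. The study's later steps (median coverage, quantile normalization, a regularizer) were not part of the deposited counts and were not used here.

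Counts were summed per annotation and library. Of 14765 gene annotations, 12446 were current RefSeq symbols and 1981 synonyms. Library sizes were gene reads, 6491832 to 19100843 per library, scaled by TMM, and unannotated and repeat reads stayed out of them. edgeR 4.0.16 (R 4.3.3) was fitted as ~ group to all 6 libraries after filterByExpr (11125 genes), with the quasi-likelihood test and Benjamini-Hochberg adjustment at 0.05. On simulated data for this comparison (11074 genes, 200 changed), 99% of genes changed 2-fold and 100% of those changed 4-fold were recovered, and 0.092% of unchanged genes were called. The changed genes were drawn from above a floor of mean CPM, and all genes shared the same dispersion. Recovery among low genes, or genes with a wider spread between plates, was therefore not measured. The smallest p of an exact permutation test in this design is 0.1.

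Deposited sequences were also matched exactly to GENCODE M21 transcripts (GRCm38), and no coordinates were converted between builds. The 8 genes and the lists were chosen with earlier results of these data known. Named from each list were the 3 largest rises and 3 largest falls among called genes whose mean log2 CPM reached 1, and Klhl13, Cdk4, Cdk6, Rb1, Trp53, Mdm2, Cdkn1a, Cdkn2c, Prmt5, Cul3 and Aurkb whether called or not. Among the neighbours the rule took the nearest tested gene on each side, the 2 largest rises and 2 largest falls, and the interferon genes as 1 group. The 5 most alike genes were taken by Euclidean distance. Alternatives were DESeq2 1.42.0, no TMM, no filter, distinct sequences, reads matching a single GENCODE gene, a replicate block and each library left out. No 2 replicates agreed within sampling noise. Chi-square per degree of freedom was 1.72 for CD24- replicates 1 and 2, and 9.77 to 15.9 for every other pair. The CD24- libraries were therefore unevenly spread, with replicates 1 and 2 close to each other and replicate 3 apart. The SDs and tests treat all 3 as equal plates. Intervals and floors of 3 counts cover counting error only.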

Additional observations from a re-analysis of the deposited data

Results flagged for a closer look

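Reads that the authors annotated to repeats were left out of the gene counts. Inside the span of the Mtap reads there were 9, 11 and 6 such reads in the CD24- libraries and 44, 188 and 165 in the CD24+ libraries. Their CD24- level was 10.2% ± 3.06 of the CD24+ level (10.1814% before rounding), and the groups did not overlap. They were set apart because they are a signal outside the gene counts. Part of them lay in the last exon of Mtap, whose reads end at 88.827 Mb of chromosome 4 (mm9).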

How the results depend on the processing

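Of 86 values of the 8 results recomputed under the alternatives, 83 stayed within the limits set for no change (counts within 1.5 times, shares within 1 SD). The 3 that moved all came from counting each distinct sequence once per library, which gave 7 of 21 called neighbours in place of 12 of 22, a Klhl9 share of 10.17% in place of 9.096% and an Mtap share of 16.39% in place of 9.395%. Under it the genes called were 3697 in place of 5130 (33.4% in place of 46.1%), those of the INK4 and ARF pathway 14 in place of 19 and those of the Mtap pathway 8 in place of 12. With a library left out, the genes called ranged from 4069 to 5358, the Klhl9 share from 8.685% to 9.532%, the Mtap share from 8.991% to 10.2% and the neighbours called from 9 to 12. For the lists these ranges were 15 to 21 (INK4 and ARF), 10 to 12 (Mtap pathway), 5 to 8 (Klhl9 partners) and 7 to 9 (partners of Mllt3, BC057079 and Ptplad2). Same-numbered libraries of the groups did not deviate together (r = 0.0132, -0.271 and -0.323). The methods name no pairing and the main fit used none, though these values cannot exclude one. With the replicate block 4493 genes were called, with 12 neighbours and 17, 12, 5 and 7 genes of the lists in the same order. DESeq2 called 4955. The 40 named genes gave 440 values, of which 1 changed sign (Cdk4 with distinct sequences), 14 of called genes no longer passed and 6 of uncalled genes passed.

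The depth limits Cdkn2a and Cdkn2b, with no read in any library, and Elavl2, with 13 reads in CD24- libraries, most. Junction reads and reads with variants were outside the files. Repeat reads may come from elsewhere.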
